A study of Macaca mulatta with 32 samples.

Results

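Ankyrins and spectrins build the membrane skeleton of the axon and the dendrite, and the circular RNAs (circRNAs) of 5 of their genes are described here across the rhesus macaque brain. The hosts are ANK1, ANK2 and ANK3, which encode ankyrin-R, ankyrin-B and ankyrin-G, SPTAN1, which encodes the alpha-II spectrin of most cells other than erythrocytes, and SPTBN1, which encodes beta-II spectrin. They were taken as every row of the deposited circRNA table whose host symbol is one of these names, which gave 80 of 52828 circRNAs. The genes were selected on measured values, namely the high cerebellar level of an intronic ANK1 circRNA in this table, so that level and the other CB differences of these hosts are given below as descriptions, from which no inference is drawn. By host there were 5 circRNAs of ANK1, 16 of ANK2, 23 of ANK3, 26 of SPTAN1 and 10 of SPTBN1, against a median of 3 circRNAs over all hosts of the table.

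Spectrin is a tetramer of alpha and beta chains that lies as a periodic lattice under the plasma membrane, where short actin filaments join its ends. Ankyrins are the adaptors of this lattice: they bind beta spectrin on one side and ion channels, transporters and cell adhesion molecules on the other. Ankyrin-G organises the axon initial segment and nodes of Ranvier, ankyrin-B works along the axon shaft, and ankyrin-R is the erythrocyte form that is also known from neurons, cerebellar Purkinje cells included. A circRNA forms when a downstream splice site of a transcript is joined back to an upstream one, and it is counted by the reads that cross this back-splice junction. Its level is not that of the host's mRNA or protein, which were not analysed here.

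The samples were 32 libraries of total RNA from which poly(A) RNA and ribosomal RNA had been removed and linear RNA digested with the exonuclease RNase R, and every group shared these steps. Each of 8 regions, namely prefrontal (PFC), posterior cingulate (PCC), temporal (TC), parietal (PC) and occipital (OC) cortex, hippocampal CA1, dentate gyrus (DG) and cerebellar cortex (CB), gave 4 libraries. Within a region there was 1 library for each age (10 or 20 years) and sex of healthy macaques, named 10F, 10M, 20F and 20M. Each library pooled the RNA of 2 animals, and the same 4 pools recur in all regions, so a region comparison rests on 8 animals in 4 pools and an age or sex comparison on 2 pools against 2.

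Library depth differed, and with it the level that 1 read stands for. The libraries held 18813 to 894932 back-splice reads (median 179118), and 1 read was worth 0.288 to 18.7 TPM. The CB 10F library was the shallowest, and a junction was listed only from 2 reads on. Of the 80 circRNAs, 3 to 20 were found in a given library, 47 were found in 1 library alone and 24 passed the abundance filter of the study. All 24 entered the fits across 17050 circRNAs, and ANK1 kept 2 of its circRNAs, ANK2 4, ANK3 10, SPTAN1 8 and SPTBN1 none. In 5 libraries (PFC 20F, PCC 20F, PC 10M, CA1 20M and DG 20M) over 95% of the reads passed cleaning, unlike the other 27. Of these 5, 4 are from animals of 20 years and 1 is from animals of 10 years. Circular transcripts of cerebellar marker hosts summed to 61.6 to 112 TPM in CB, 0 to 71.2 TPM in neocortex and 0 to 16.4 TPM in hippocampus, with 6 of the 15 markers represented. Forebrain marker hosts, 5 of 9 represented, summed to 0 to 10.5 TPM in CB, 23.1 to 184 TPM in neocortex and 0 to 93.1 TPM in hippocampus. PCP2, CALB1 and PVALB, CBLN1, PROX1 and the markers of CA1 and microglia had no circRNA, so the regional labels could be checked only in part.

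The 5 hosts differed in how many of their reads a single junction carried. Letters after the host name give the order of its circRNAs by reads, so that circANK1-a is the most abundant of ANK1. The hosts gave 20675 back-splice reads, of which 97.5% fell on the 24 kept circRNAs and 56.0% on those labelled intronic. Intronic and exonic are the labels of the deposited table throughout, and the exon content of the circles was not examined. ANK1 had 10675 reads, the 80th highest host total, and circANK1-a carried 96.2% of them. ANK2 had 5607 reads (182nd), and circANK2-a and circANK2-b carried 65.8% and 29.6%. ANK3 had 3404 reads (342nd), led by circANK3-a with 36.9%. SPTAN1 had 864 reads (1189th) spread over 26 junctions, with 23.4% on circSPTAN1-a, and SPTBN1 had 125 reads (3491st). A back-splice read crosses 1 junction whatever the length of the circle, and no length correction was applied. Whether circles of different length yield junction reads equally well was not tested.

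**Figure D1:**
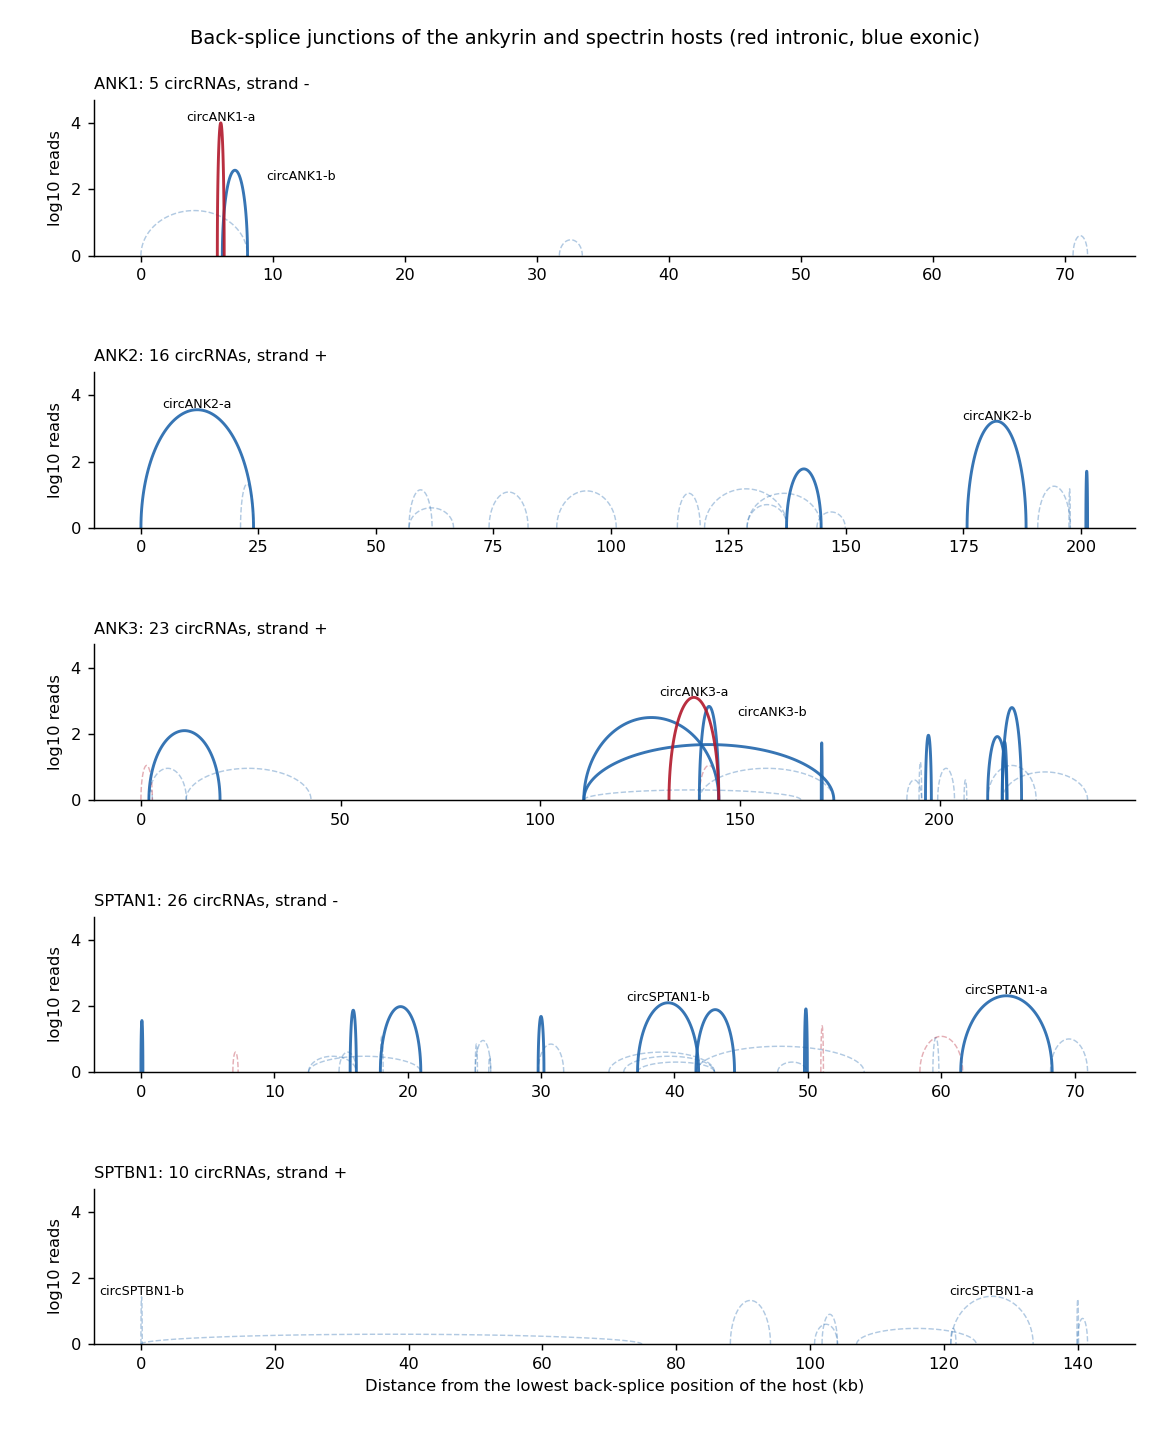
Arcs join the back-splice ends of each circRNA, placed by distance in kb from the lowest position of its host, with height on a log10 scale of reads over 32 libraries. Red arcs are intronic, blue arcs exonic, solid arcs kept and dashed arcs not kept. ANK1 has most reads at 1 short intronic circle of 10265 reads, ANK2 near both ends of the span of its junctions, and 4 ANK3 circles meet at 1 site.

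ANK1 is read from the minus strand of chromosome 8 of the macaque assembly used by the study (gene ENSMMUG00000014726). The intronic circANK1-a lies at chr8:42216486-42217006, spans 521 bases and was found in 31 of 32 libraries. The exonic circANK1-b at chr8:42216866-42218776 spans 1911 bases, had 380 reads in 14 libraries and overlaps circANK1-a by 141 bases. The other 3 ANK1 circRNAs had 30 reads together and did not pass the filter. In the whole table circANK1-a ranked 81st of 52828 by reads, 5th of 6888 intronic circRNAs and 3rd of the 1237 intronic ones that span under 1000 bases. It made up 6.15% of all back-splice reads of that last class.

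In the cerebellum circANK1-a stood far above every other region. Its CB levels were 5092 TPM in 10F, 2227 TPM in 10M, 1401 TPM in 20F and 2836 TPM in 20M, a mean of 2889 ± 1582 (SD, n = 4). In the 28 other libraries it ran from 0 to 458 TPM with a median of 171 TPM, so the groups did not overlap and the lowest CB library was 3.06 times the highest library elsewhere. The ratio of the means was 15.0. Within a pool, where both tissues come from the same animals, CB exceeded the mean of the other 7 regions 39.3 times in 10F, 13.1 times in 10M, 6.32 times in 20F and 11.3 times in 20M. All 4 pools thus had their highest value in CB. The high value of CB 10F rests on 272 reads in a library where 1 read is worth 18.7 TPM. It was the 2nd, 10th, 12th and 5th most abundant circRNA of the CB 10F, 10M, 20F and 20M libraries and took 0.731% to 1.45% of their reads, against 0% to 0.256% elsewhere. In the 28 other libraries its rank ran from 46 to 5632, the lowest place being that of the library at 0, with a median of 216. More cells of a type and more RNA per cell cannot be told apart in tissue pieces, and the part of the marker difference given above was not tested.

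Among the remaining regions the order of mean levels was OC, PCC, TC, PC, PFC, DG and CA1. OC had 370 TPM in 10F, 323 TPM in 10M, 458 TPM in 20F and 377 TPM in 20M, a mean of 382 ± 56.3 (SD, n = 4). The OC piece was taken from the primary visual area. Of the 24 libraries outside CB and OC, 3 reached the lowest OC value, namely PCC 20M with 433 TPM, TC 20M with 362 TPM and PFC 20F with 357 TPM. PCC averaged 236 ± 136 TPM, TC 212 ± 105, PC 204 ± 59.8 and PFC 140 ± 145 (each SD, n = 4), and every one of these neighbours overlapped the next in range. DG averaged 117 ± 117 TPM and CA1 63.1 ± 55.6 TPM. CA1 10F was the only library listed at 0, and the 2 reads from which a junction is listed are worth 6.09 TPM there. Leaving out the libraries with over 95% clean reads, a choice made after seeing the data, moved the mean of PFC to 67.1 TPM and that of DG to 59.5 TPM (n = 3 each), with CA1 at 67.2 TPM.

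**Figure D2:**
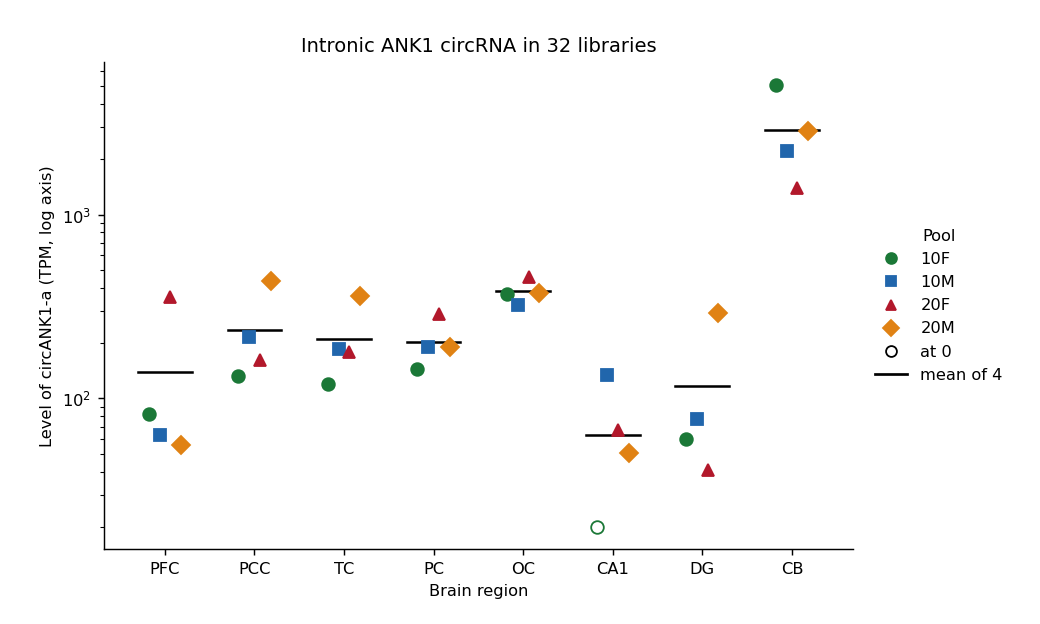
Level of circANK1-a in TPM on a log axis for the 4 pools of each region, with the mean as a line. The open symbol in CA1 is a library at 0, drawn near the foot of the axis. The 4 CB libraries sit between 1401 and 5092 TPM and all others at or below 458 TPM, with OC the next group at 323 to 458 TPM.

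Most reads of the host were of circANK1-a in every region. It was 97.8% ± 1.6 in CB (SD, n = 4) and 95.5% ± 6.96 in the 27 other libraries with at least 10 ANK1 reads. The binomial intervals given here cover counting error only. For single CB libraries the share was 100% of 272 reads (95% exact binomial interval 98.7% to 100%), 96.7% of 1533 (95.6% to 97.5%), 96.6% of 1336 (95.4% to 97.5%) and 97.9% of 1317 (97.03% to 98.6%). The lowest share was 72.5% of 51 reads in CA1 10M (58.3% to 84.1%). The 4 ANK1 reads of CA1 10F were all of circANK1-b.

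The exonic neighbour circANK1-b was also highest in CB on average, at a lower level, but it was at 0 in many libraries. It averaged 41.4 TPM in CB, 17.4 in PFC, 12.7 in PC and 8.83 in OC. The PFC mean rests on PFC 20F, without which it was 5.29 TPM (n = 3). It was listed at 0 in every PCC and TC library. It had 66.1, 40.2 and 59.4 TPM in CB 10M, 20F and 20M and was at 0 in CB 10F, where 2 reads are worth 37.4 TPM. Elsewhere it was found in 11 of 28 libraries, up to 53.8 TPM in PFC 20F and 23.7 TPM in DG 20M. Per 100 reads of circANK1-a there were 2.49 reads of circANK1-b in CB and 4.59 elsewhere. Without the 5 libraries with over 95% clean reads the value elsewhere was 2.80, and in those 5 it was 8.71.

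Across the 24 kept circRNAs, CB minus the mean of the other 7 regions was positive for 8 and negative for 16, with a median of -0.16 on the log2(TPM + 2.455) scale, against -0.14 over all 17050. These signs depend on the scale: with voom on the recovered reads, 21 were positive and 3 negative, with a median of 0.84 against 0.81 over all circRNAs, and circANK3-a (0.045) and circSPTAN1-h (0.45) turned positive. The largest positive differences were those of circANK1-a (4.22 ± 0.70, log2 difference ± SE), circANK3-b (2.52 ± 0.94), circANK1-b (2.26 ± 0.78), circANK3-d (0.85 ± 0.77) and circANK3-f (0.72 ± 0.61). The most negative were those of circANK2-a (-2.58 ± 0.95), circANK2-b (-1.80 ± 0.99), circANK3-a (-0.65 ± 0.97), circSPTAN1-a (-0.56 ± 0.75) and circSPTAN1-h (-0.42 ± 0.51). All of these but circANK2-b were at 0 in CB 10F, where 2 reads are worth 37.4 TPM. One of the 24, circANK1-a, was past the threshold of adjusted p = 0.05 with a higher level, where 1.86% of all circRNAs were, and since the choice of members used this contrast nothing is read from that count. For host totals, the summed level of all circRNAs of a gene, ANK1 differed by 4.10 ± 0.51, ANK3 by 0.80 ± 0.56, SPTAN1 by -0.84 ± 0.82 and ANK2 by -1.28 ± 0.55. Of 4902 host totals tested, 2.84% were called higher in CB and 2.41% lower.

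**Figure D3:**
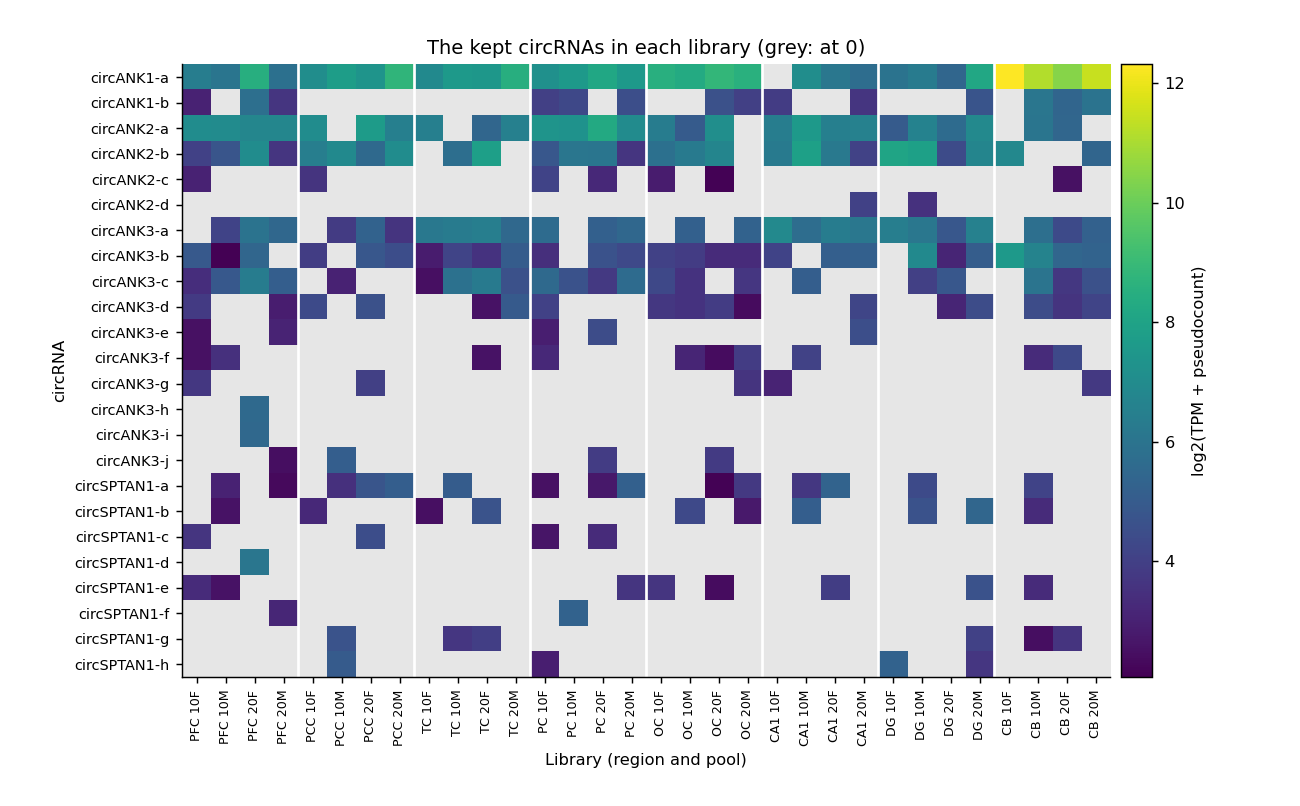
Level of the 24 kept circRNAs in each of 32 libraries as log2(TPM + 2.455), grey where a circRNA was listed at 0. Rows are ordered by host and by reads, and white lines part the regions. circANK1-a is above 0 in 31 libraries and highest in CB, while most ANK3 and SPTAN1 circles show in few libraries, and circANK3-h, circANK3-i and circSPTAN1-d show in PFC 20F alone.

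ANK2 lies on the plus strand of chromosome 5 (gene ENSMMUG00000008633), and all of its 16 circRNAs were exonic. circANK2-a at chr5:106025431-106049390 spans 23960 bases near the low end of the gene's junctions, and circANK2-b at chr5:106201205-106213759 spans 12555 bases near the other end. Both were found in 27 of 32 libraries. The host total was 67.6 ± 30.8 TPM in CB (SD, n = 4), the lowest of the 8 regions, with 112, 63.1, 44.5 and 50.6 TPM in 10F, 10M, 20F and 20M. PC had 243 ± 104, DG 233 ± 120 and CA1 217 ± 138 TPM, the highest means, and their ranges overlapped. Outside CB the total ran from 10.8 TPM in OC 20M to 422 TPM in CA1 10M. Within each pool CB was the 7th or 8th of the 8 regions.

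Of the pair circANK2-a and circANK2-b, 23 of 32 libraries held both, 4 only circANK2-a, 4 only circANK2-b and 1, OC 20M, neither. No CB library held both: 10M and 20F had circANK2-a, with 42 and 38 reads, and 10F and 20M had circANK2-b, with 6 and 18 reads. In TC, 10F and 20M had circANK2-a, with 55 and 62 reads, 10M had circANK2-b, with 10 reads, and 20F had both, with 35 and 195 reads. In the sum of both, circANK2-a took 76.9% of the pooled CB reads, 70.5% in neocortex and 61.3% in hippocampus, but from 0% to 100% in single neocortical libraries. All 8 hippocampal libraries held both, with circANK2-a at 10.2% to 86.4%. The third ANK2 circle, circANK2-c at chr5:106162790-106170156, was found in 7 of 16 female libraries at 1.90 to 14.9 TPM and in 0 of 16 male libraries. circANK2-d at chr5:106226482-106226841 had 51 reads, in CA1 20M and DG 10M only.

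ANK3 lies on chromosome 9 (gene ENSMMUG00000003589), with 21 of its 23 circRNAs on the plus strand and 2 listed on the other. Unlike ANK1, its reads were split over a cluster of junctions: 18 of the 23 share a start or an end with another ANK3 circle. A single site, 77151712, is the end of 4 circles that carry 65.9% of the ANK3 reads. These include circANK3-a, labelled intronic, at chr9:77139250-77151712, with 1255 reads in 26 libraries, circANK3-b at chr9:77146855-77151712, with 669 reads in 27 libraries, and circANK3-d at chr9:77117924-77151712, with 309 reads in 17 libraries. The span of circANK3-a contains that of circANK3-b, which is labelled exonic. circANK3-c at chr9:77222701-77227536, 617 reads in 22 libraries, stands apart towards the high end of the gene's junctions. The host total was highest in CB, 167 ± 73.6 TPM (SD, n = 4), and lowest in PCC, 54.3 ± 30.4 TPM, and each region overlapped its neighbour in the order of means. Within pools CB was the highest of the 8 regions in 10F and 10M, the 6th in 20F and the 5th in 20M.

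CB held more of circANK3-b and less of circANK3-a than the mean of the 28 other libraries. circANK3-b stood at 187, 99.2, 41.3 and 37.4 TPM in CB 10F, 10M, 20F and 20M, and at 0 to 118 TPM elsewhere, with a median of 13.4 TPM. DG 10M, at 118 TPM, was the only library outside CB above the second-highest CB value, so the groups overlapped. The intronic circANK3-a was at 0, 54.1, 18.5 and 35.2 TPM in those CB libraries and at 0 to 116 TPM elsewhere, with a median of 42.5 TPM. In CB 10F, circANK3-b rests on 10 reads, which also give the 100% share below. The 0 of circANK3-a there stands below a listing limit of 37.4 TPM, close to that median. In the sum of both, circANK3-b took 131 of 200 CB reads, 65.5%, against 31.2% elsewhere. Single CB libraries held 51.5% to 100%, while single libraries elsewhere ran from 0% to 100% with a median of 26.7%, and 6 of those 27 reached the lowest CB share. The circle that leads ANK1, labelled intronic, was at its highest in CB. By contrast circANK3-a, also labelled intronic, had its highest levels in CA1 10F (116 TPM), DG 20M (92.2 TPM) and TC 20F (86.1 TPM).

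**Figure D4:**
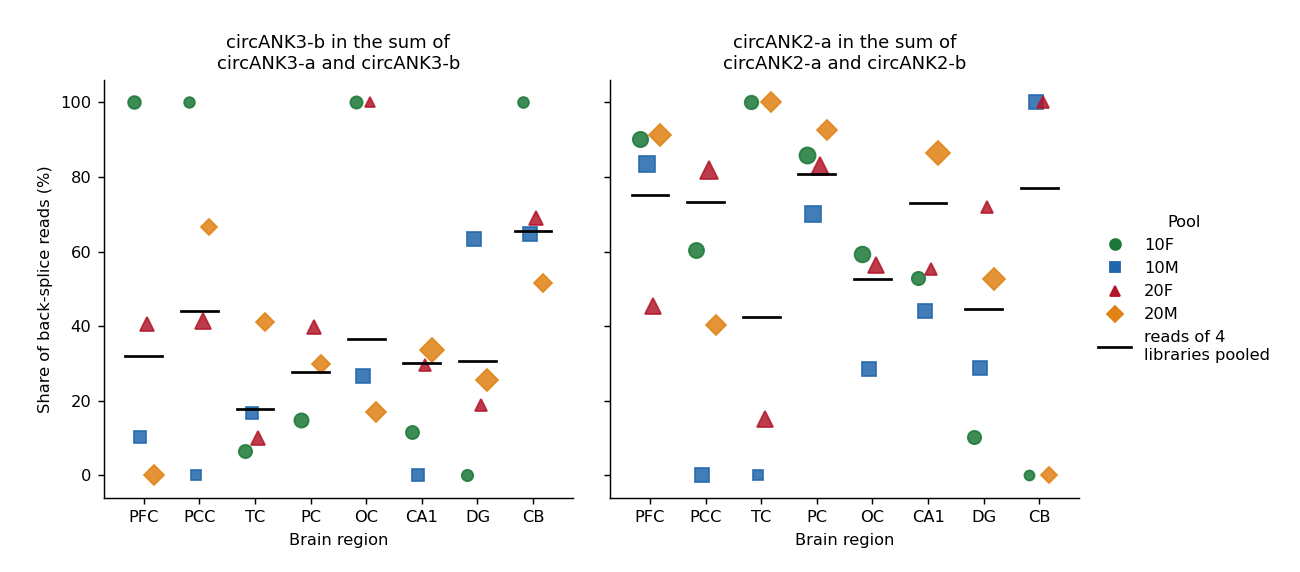
Share in percent of circANK3-b in the reads of circANK3-a and circANK3-b (left) and of circANK2-a in the reads of circANK2-a and circANK2-b (right), by region. Symbols are pools, larger for more reads, and lines give the pooled reads of 4 libraries. The CB line is at 65.5% on the left, while single libraries on both sides spread from 0% to 100%.

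The spectrin hosts gave few reads. SPTAN1 lies on the minus strand of chromosome 15 (gene ENSMMUG00000009327) and was found in 29 libraries. Its total was 55.1 ± 45.3 TPM in DG, the highest mean, and 17.2 ± 17.0 TPM in CB, the lowest (SD, n = 4 each), with overlapping ranges throughout. circSPTAN1-a at chr15:10287024-10293878 had 202 reads in 15 libraries, up to 37.7 TPM in CA1 20F, and circSPTAN1-b at chr15:10262793-10267369 had 124 reads in 10 libraries, up to 41.3 TPM in DG 20M. circSPTAN1-c at chr15:10243509-10246541 had 95 reads in 4 libraries, all from females. SPTBN1 lies on chromosome 13 (gene ENSMMUG00000013541), and its 10 circRNAs were found in 12 libraries, 10 of them neocortical. Its total was highest in PC, where all 4 libraries held it at 1.38 to 27.2 TPM, and was listed at 0 in every PCC and DG library. Its leading circles, circSPTBN1-a at chr13:54935595-54947880, circSPTBN1-b at chr13:54814545-54814739 and circSPTBN1-c at chr13:54954425-54954663, had 28, 27 and 23 reads. None passed the filter, so SPTBN1 entered no test that used the filter.

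Single-library circles were as common among these hosts as elsewhere in the table: 58.8% of the 80 and 55.1% of the 52828. The 3 that were kept on their read number alone, circANK3-h with 56 reads, circANK3-i with 53 reads and circSPTAN1-d with 81 reads, were all found in PFC 20F, where they stood at 45.6, 43.2 and 66.0 TPM. That library is one of the 5 with over 95% clean reads, and of the 2002 kept circRNAs found in a single library across the table, 95.1% were in one of those 5.

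The comparison of hippocampus with neocortex did not enter the choice of these genes and was tested with limma. The ANK1 total was lower in the mean of CA1 and DG than in the mean of the 5 neocortical regions, by 1.51 ± 0.40 on the log2 scale (log2 difference -1.51 ± SE, adjusted p = 0.0270 by limma). Of these regions PFC, with a median of 76.8 TPM, was near DG (68.7 TPM) and CA1 (63.9 TPM). The medians of PCC, TC, PC and OC ran from 182 to 380 TPM. The 8 hippocampal libraries ran from 12.2 to 314.5 TPM with a median of 63.9 TPM, and the 20 neocortical ones from 63.5 to 480 TPM with a median of 210 TPM, so the ranges overlapped. Over all 4902 hosts the median difference was -0.23, and 1.06% were called lower. The other 3 totals tested did not pass: ANK2 differed by 0.43 (95% interval -0.41 to 1.27), ANK3 by 0.59 (-0.26 to 1.45) and SPTAN1 by -0.10 (-1.36 to 1.15). Oligodendrocyte hosts, 4 of 5 markers represented, summed to 0 to 47.3 TPM in hippocampus and 0 to 38.3 TPM in neocortex (medians 20.2 and 0), and astrocyte hosts, 4 of 4, to 0 to 27.3 and 0 to 34.5 TPM (medians 0 and 12.5); their part in the result was not tested. The ANK1 call was lost when CA1 10F (adjusted p = 0.152), DG 10F (adjusted p = 0.0702), DG 10M (adjusted p = 0.0568) or DG 20F (adjusted p = 0.0893) was left out in limma, and it was kept without each of the other 24 libraries. It was also lost without the pool 10F (adjusted p = 0.261) or 20F (adjusted p = 0.231), with no filter (adjusted p = 0.0620) and with voom (adjusted p = 0.106), by limma in each.

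At the level of single circRNAs none of the 24 passed in that comparison by limma, and 3 had an unadjusted p under 0.05. Over all circRNAs 0.223% were called, and 1155 of 17050 had an unadjusted p under 0.05. circANK1-a had the smallest p: it was lower in hippocampus by -1.89 ± 0.55 (adjusted p = 0.129 by limma), with 0 to 291 TPM and a median of 63.6 TPM in hippocampus against 55.9 to 458 TPM and a median of 191 TPM in neocortex. circANK3-c differed by -1.36 ± 0.71 (adjusted p = 0.745). circANK3-a differed the other way, by 1.84 ± 0.76 (adjusted p = 0.522 by limma), with 26.7 to 116 TPM in all 8 hippocampal libraries and 0 to 86.1 TPM in neocortex, where 5 of 20 libraries lacked it. circANK2-d differed by 0.62 ± 0.27 (adjusted p = 0.549) on 2 libraries. The shares within a host did not pass either: 0 of 24 by limma on the arcsine square root of the share, where 0% of the 7650 tested were called. An unadjusted p under 0.05 was found for 2 of the 24, with no count over all shares at that threshold. The share of circANK3-a in the ANK3 reads was 60.1% ± 20.9 in 8 hippocampal libraries and 29.2% ± 21.3 in 19 neocortical ones (SD, adjusted p = 0.494 by limma). That of circANK1-a was 92.6% ± 10.8 in 7 and 96.5% ± 4.99 in 20 (adjusted p = 0.853 by limma).

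**Figure D5:**
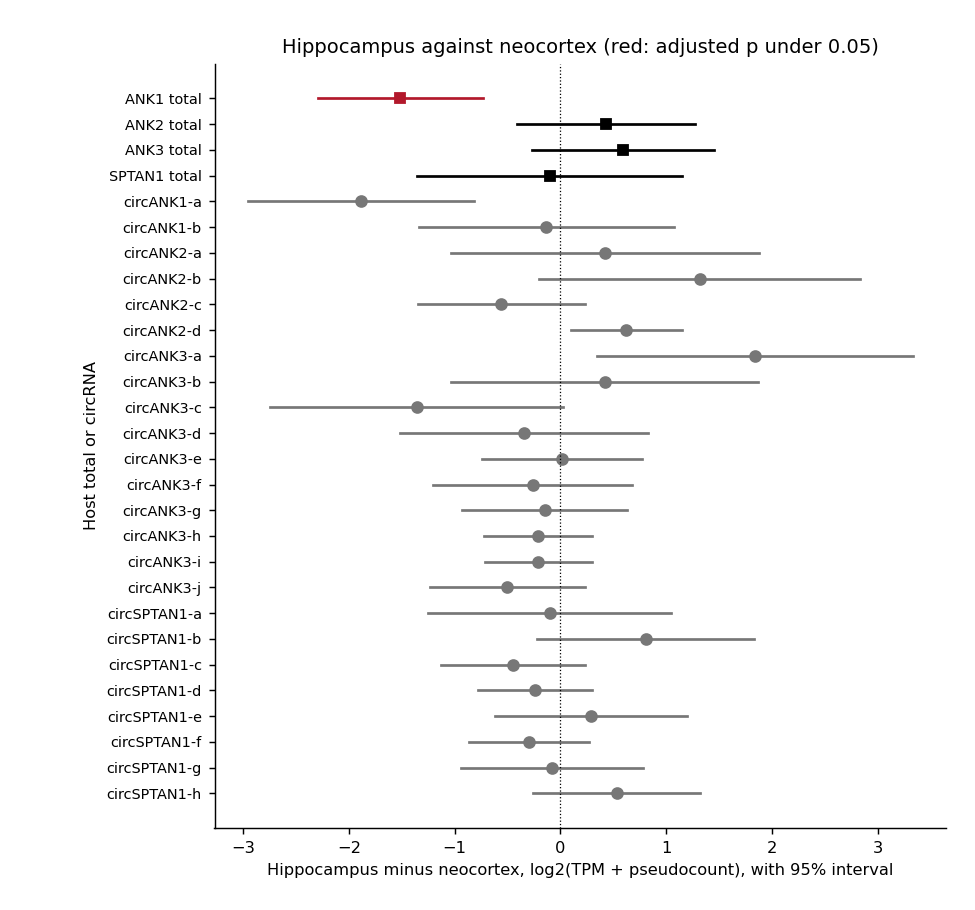
Hippocampus minus neocortex on the log2(TPM + 2.455) scale for 4 host totals (squares) and 24 circRNAs (circles), with 95% intervals. The ANK1 total, at -1.51, is the only value past adjusted p = 0.05, and circANK3-a lies farthest to the right at 1.84.

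Age was compared between 16 libraries from animals of 20 years and 16 from animals of 10 years, with region and sex in the model. None of the 24 circRNAs and none of the 4 host totals passed by limma, and none had an unadjusted p under 0.05. Over all features, 0.00587% of circRNAs and 0.0204% of hosts were called. An unadjusted p under 0.05 by limma was found for 776 of 17050 circRNAs and 313 of 4902 hosts. The ANK1 total was higher at 20 years in 13 of the 16 pairs of libraries of one region and sex, with medians of 301 TPM at 20 years and 172 TPM at 10 years, and the fitted difference was 0.45 ± 0.33 (95% interval -0.20 to 1.11, adjusted p = 0.813 by limma). Its mean went the other way, 488 TPM against 600 TPM, through CB 10F. The smallest p at circRNA level was that of circANK1-b, 0.99 ± 0.51 higher at 20 years (adjusted p = 0.799 by limma), found in 9 of 16 libraries against 5 of 16. circANK3-a differed by 0.90 ± 0.64, circSPTAN1-h by -0.43 ± 0.34 and circANK2-b by -0.76 ± 0.64 (each adjusted p = 0.799 by limma). The 3 other host totals lay at -0.27 ± 0.36 for ANK2, 0.19 ± 0.37 for ANK3 and -0.015 ± 0.53 for SPTAN1. Without the 5 libraries with over 95% clean reads, 4 of which are from 20 years, they were -0.36 for ANK2, -0.26 for ANK3 and -0.34 for SPTAN1, with 0.19 for ANK1, so 1 of the 4 totals was positive in place of 2. Shares within a host gave 0 calls of 24 by limma, 0 with an unadjusted p under 0.05, and 0% of 10820 tested.

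Sex gave no call either, by limma, where 0.0176% of all circRNAs and 0% of all hosts were called. At an unadjusted p under 0.05 by limma were 2 of the 24 circRNAs and 1 of the 4 host totals. Over all features, 798 of 17050 circRNAs and 315 of 4902 hosts were under that threshold. The SPTAN1 total had medians of 34.8 TPM in 16 male and 14.9 TPM in 16 female libraries, was higher in the male in 10 of 16 pairs, and differed by 1.06 ± 0.53 (adjusted p = 0.778 by limma). Its leading circle circSPTAN1-a differed by 1.02 ± 0.49 (adjusted p = 0.796 by limma), found in 10 male and 5 female libraries. circSPTAN1-b differed by 0.79 ± 0.44, circSPTAN1-c by -0.56 ± 0.29 and circANK2-c, described above as seen in females, by -0.78 ± 0.34 (each adjusted p = 0.796 by limma). The ANK1 total differed by 0.42 (95% interval -0.23 to 1.07), the ANK2 total by -0.47 (-1.18 to 0.24) and the ANK3 total by -0.0025 (-0.73 to 0.73). For shares within a host there were 0 calls of 24 by limma, where 0% of 10912 tested were called. An unadjusted p under 0.05 was found for 2 of the 24, with no count over all shares at that threshold.

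Of 16 spectrin partners, which are other spectrins, adducins, protein 4.1 family members, dematin and tropomodulins, all had a circRNA and 13 host totals were tested. By limma 1 was past the threshold with a higher level in CB, where 2.84% of all hosts were, and none with a lower level. It was EPB41, the gene of protein 4.1R, which strengthens the contact of spectrin with actin. EPB41 had 56.2, 22.55, 47.8 and 37.4 TPM in CB 10F, 10M, 20F and 20M and 5.82 ± 7.86 TPM in the 28 other libraries (log2 difference 2.96 ± 0.77). In CB 10F, 3 reads are worth 56.2 TPM. Of 16 membrane proteins known to bind ankyrins, 13 had a circRNA and 6 totals were tested, and 2 were lower in CB, where 2.41% of all hosts were. Both lists were chosen with earlier results of these data known, so their CB values are given as descriptions, from which no inference is drawn. NFASC, which encodes neurofascin, an adhesion molecule held by ankyrin-G at the axon initial segment and nodes, had 95.2 ± 94.8 TPM in CB and 671 ± 317 TPM elsewhere (log2 difference -3.49 ± 0.71). NRCAM, a related adhesion molecule, had 27.9 ± 21.3 TPM in CB and 130 ± 70.5 TPM elsewhere (log2 difference -2.45 ± 0.64). It was at 0 in CB 10F, where 2 reads are worth 37.4 TPM. The median difference in CB was -0.01 for the spectrin partners and -1.71 for the ankyrin-binding proteins, against -0.07 over all hosts. In hippocampus against neocortex neither list had a call by limma. An unadjusted p under 0.05 was found there for 2 of 13 spectrin partners and 2 of 6 ankyrin-binding proteins, against 592 of all 4902 hosts. For age and sex there were 0 calls and 0 such totals.

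The circRNAs whose levels followed circANK1-a most closely came from other hosts. Over 32 libraries, among 3150 circRNAs found in at least 16, the highest Pearson correlations of log2 levels were those of an intergenic circRNA on chromosome 20 (0.73), of KIAA0802 (0.72), CTBP2 (0.68), ENSMMUG00000012254 (0.68) and WWOX (0.64). Over the 28 libraries outside CB the leading ones were the same intergenic circRNA (0.70), RBM5 (0.70), VAV3 (0.67), ENSMMUG00000012254 (0.66) and TIMMDC1 (0.60). The other circRNAs of the 5 hosts found in as many libraries had values from -0.39 for circANK2-a to 0.42 for circANK3-b over 32 libraries, which were -0.11 and 0.076 over the 28 outside CB. All points share library and depth, and the values are descriptions.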

How the data were processed

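RNase R-treated RNA of 32 macaque brain libraries was sequenced by the authors, who trimmed reads with Cutadapt, aligned them with BWA and called circRNAs with CIRI2 from 2 junction reads per library; the genome build is not given in the sources used here. The deposited table holds TPM values of 52828 circRNAs, while the methods of the study name division by a size factor, so the constant behind the TPM scale stays unknown. All values above 0 were whole multiples of a step per library (100% within 0.05 of a whole read), which gave back-splice reads and depth. The filter of the study (3 or more reads in 2 or more libraries of a region, in 2 or more regions; or 1 such region and 6 such libraries; or 30 or more reads in total) left 17050 circRNAs of 4902 hosts. limma 3.58.1 (R 4.3.3, eBayes with trend) was fitted on log2(TPM + 2.455), where the pseudocount is the typical lowest value above 0 of a library, and with Benjamini-Hochberg adjustment over all features and a threshold of 0.05. A fold on this scale can understate the change of low circRNAs. A 0 in a shallow library can instead overstate a lower level, since 2 reads are worth 37.4 TPM in CB 10F. Region models held region alone, and age and sex models held region and the other factor. Shares were compared by limma on arcsine square roots; for hippocampus against neocortex the 28 libraries outside CB were fitted with 2 group means. The fits were also run on simulated reads with large changes set in the more abundant circRNAs and with no pool effect. That run does not test small differences, sparse circRNAs or shared pools. Python 3.11.15 and SciPy 1.17.1 gave the exact intervals.

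Pools pair the libraries, since the same animals gave all regions. Deviations from region means correlated with a median of 0.027 between libraries of a pool (112 pairs, -0.023 to 0.070). Between pools the median was -0.008 (336 pairs). The within-pool correlation fitted by limma was -0.030. With 2 pools for each age or sex, these correlations cannot show that libraries of a pool are independent in the age and sex comparisons. Each library pools 2 animals. For regions, p-values measure the spread between libraries within a region, which come from different pools. For age and sex, they also measure the spread between libraries, with the regions of a pool counted as replicates. They do not measure the spread between the 2 pools of an age or a sex.

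Members and lists were chosen with earlier results of these data known. Named were the 5 hosts, the 3 leading circRNAs of each, in each tested comparison the members past the threshold or otherwise the 2 with the smallest p in each direction, for CB the 5 largest differences in each direction, and by correlation the 5 circRNAs most like circANK1-a. Other circRNAs named were chosen after their values were seen. Alternatives were other pseudocounts, scales and filters, voom on reads, the unpaired test of the study, a pool block, and leaving out pools or libraries.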

Additional observations from a re-analysis of the deposited data

Results flagged for a closer look

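In groups of 4 libraries, 10 of 46 combinations of region and measure held 1 library far from the rest by Dixon's 95% criterion on the gap over the range; chance flags about 1 in 20 groups, and host totals share reads with their circRNAs. PFC 20F stood apart for ANK1 with 410.76 TPM against 63.5 to 87.7 TPM in the other PFC libraries, for circANK1-a with 356.97 TPM against 55.9 to 81.9, for ANK3 with 269.78 TPM against 61.2 to 89.2, and for SPTAN1 with 66.02 TPM against 10.6 to 17.4. DG 20M stood apart for ANK1 with 314.5 TPM against 41.1 to 77.25, and for circANK1-a with 290.78 TPM against the same range. Both libraries are among the 5 with over 95% clean reads. CA1 10M stood apart for ANK2 with 421.99 TPM against 123 to 167 TPM. For SPTBN1 a single library was above 0 in PFC (10M, 2.31 TPM), CA1 (10F, 9.14 TPM) and CB (10M, 4.51 TPM); these 3 groups meet the criterion by construction, since the other libraries are all at 0.

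Outside the 80 rows, 2 circRNAs of the table carry the gene ID of ANK3 together with ENSMMUG00000020890 and no symbol, and were not used in the comparisons. The one at chr9:77177380-77178248 had 20 reads in 3 libraries (PFC 10M, PC 20F and OC 20F), and shares its start with circANK3-i. The one at chr9:77242390-77244064 had 95 reads in 6 libraries, CB 20F and CB 20M among them.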

How the results depend on the processing

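With the pool as a replicate block, the number of member calls did not move: 0 circRNAs for age, sex and hippocampus, 1 circRNA for CB, and 1 host total, ANK1, for hippocampus (adjusted p = 0.0220 by limma). Over all circRNAs the block moved the age calls from 1 higher and 0 lower to 17 higher and 10 lower. The sex calls moved from 0 higher and 3 lower to 13 higher and 11 lower. For age and sex the block cannot settle the effect of pools, since each group holds 2 pools. Hippocampal calls moved from 0 to 1 circRNA when only those found in at least 16 libraries were tested (circANK1-a, adjusted p = 0.0370) and to 2 with voom (circANK1-a lower and circANK2-d higher), where the median over all circRNAs moved from -0.18 to 0.98. The ANK1 total had 0 calls with no filter (adjusted p = 0.0620) and with voom (adjusted p = 0.106), by limma in both. Leaving out a pool or a library gave 0 to 1 host calls, 0 without the pools 10F and 20F. The CB contrast chose these genes, and nothing is read from its counts: they ran from 1 to 2 circRNAs without single pools (circANK1-b without 10F, circANK2-a lower without 10M) and were 2, circANK1-b being added, without the 5 libraries with over 95% clean reads. The unpaired test of the study, unadjusted, called 1 circRNA for sex, circANK2-c. Among named values that passed no test, signs turned as follows. For age, without single pools, circANK2-b ran from -1.72 to 0.19, the ANK2 total from -0.64 to 0.10 and the SPTAN1 total from -0.99 to 0.96, turning positive without 10M or 20M. The SPTAN1 age difference was 0.034 with a pseudocount of 1 TPM, 0.14 with a pseudocount of 0.2455 TPM and 0.0042 on equal totals, and the ANK3 total was -0.26 without the 5 libraries. Of the 24 circRNAs, 17 were positive and 7 negative for age in the main fit, against 7 and 17 with voom. The median age difference over all circRNAs was 0.08 in the main fit and -0.39 with voom. For sex, the ANK3 total ran from -0.034 to 0.029 without single pools and was 0.39 without the 5 libraries. For hippocampus, the SPTAN1 total ran from -0.49 to 0.50 without single pools or libraries, positive without the pools 10F and 20F and without CA1 10F, CA1 20M and DG 20F. For the CB description, circANK3-a ran from -1.25 to 0.090 without single pools, positive without 10F, and with voom circANK3-a was 0.045 and circSPTAN1-h 0.45. The cause was not tested. Leaving out single libraries, and pools in the shares, was chosen after seeing the data.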
